A study of Mus musculus with 17 samples.

Results

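The transcripts of 10 genes of late neutrophil granules and of calprotectin were followed through 17 libraries of sorted mouse blood stem and progenitor cells (HSPC), which give rise to all blood lineages. The members were taken by gene symbol from the table of counts: S100a8, S100a9, Lcn2, Ltf, Camp, Ngp, Mmp8, Mmp9, Chil3 and Lyz2, 10 of 35321 genes. All 10 were in the table, and 10 of 10 passed the filter on low counts that left 14920 genes for testing. Polyadenylated RNA had been sequenced from HSPC sorted by flow cytometry from the marrow of wild-type C57BL/6J mice. Mice were injected into the peritoneum with phosphate-buffered saline (PBS, 5 libraries, titled day 0), with lipopolysaccharide alone (LPS, a bacterial cell wall component, 3 libraries at 24 h and 3 at 72 h), or with LPS and a blocking antibody against the IL-10 receptor (3 libraries at each time). The amounts were 5 for LPS and 100 for the antibody, but the sources used here give them in micrograms in one place and in milligrams in another, so no unit is stated. No group received the antibody without LPS. The labels do not say whether a library is 1 mouse or a pool, so the p-values below measure the spread between these libraries.

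Neutrophils fill their granules in a fixed order as they mature. Primary granule genes such as Mpo and Elane are switched on in progenitors, which belong to or lie close to the sorted population. The genes of the later granules and of calprotectin are switched on after that, in myelocytes and later cells, and are best known as markers of neutrophil precursors and mature neutrophils. S100a8 and S100a9 encode the subunits of calprotectin, a metal-binding cytosolic protein that acts as an alarm signal through Tlr4 and Ager. Lcn2 binds bacterial iron carriers, Ltf binds iron, Camp is the precursor of an antimicrobial peptide and Ngp is a secondary granule protein. Mmp8 and Mmp9 are secreted proteases that cut collagen and other matrix. Chil3 is a chitinase-like protein of neutrophil precursors and some macrophages, and Lyz2 is the lysozyme of granulocytes, monocytes and macrophages.

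Several members lie near each other in the mouse genome (build GRCm38, GENCODE M21 annotation). S100a8 (chr3:90668978-90670035, plus strand) and S100a9 (chr3:90692632-90695721, minus strand) are 22.6 kb apart on chromosome 3, which also carries Chil3 (chr3:106147554-106167564, minus strand). Chromosome 9 holds Mmp8 (chr9:7558456-7568485, plus strand), Camp (chr9:109847379-109849617, minus strand), Ngp (chr9:110419747-110423012, plus strand) and Ltf (chr9:111019271-111042767, plus strand). Camp and Ngp are 570.1 kb apart, and Ngp and Ltf 596.3 kb. Chromosome 2 holds Lcn2 (chr2:32384633-32388252, minus strand) and Mmp9 (chr2:164940780-164955850, plus strand), and chromosome 10 holds Lyz2 (chr10:117277331-117282321, minus strand). All 10 are annotated as protein coding, and the annotated span of none overlaps another gene. Of the 50-base words in their transcripts, Chil3 shares 26.9% with Chil4 or Gm6522 and Lyz2 shares 15.4% with Lyz1, so part of their reads could be ambiguous. Chil4 did not exceed 0.0781 CPM and Lyz1 did not exceed 0.574 CPM in any library.

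The stretches upstream of S100a9, Ltf, Ngp and Mmp8 are shown because each holds a match to the motif of CCAAT/enhancer-binding proteins (C/EBP), the textbook regulators of late granule genes. That of S100a8, the partner of S100a9, is shown as one that holds none. They are from RefSeq (GRCm38.p6), read 5′ to 3′ on the strand of the gene, and end before the first annotated exon. The coordinates are chr3:90668821-90668977 for S100a8, chr3:90695722-90695971 for S100a9, chr9:111019042-111019270 for Ltf, chr9:110419558-110419746 for Ngp and chr9:7558179-7558428 for Mmp8. For Lcn2 a site of 28 bases is given (chr2:32387938-32387965), which lies inside the GENCODE span of the gene. Capitals mark matches to the C/EBP half-site pair TTGCNNAA on either strand.
S100a8: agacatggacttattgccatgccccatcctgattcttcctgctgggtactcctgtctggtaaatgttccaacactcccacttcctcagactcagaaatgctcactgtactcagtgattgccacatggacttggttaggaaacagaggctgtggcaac
S100a9: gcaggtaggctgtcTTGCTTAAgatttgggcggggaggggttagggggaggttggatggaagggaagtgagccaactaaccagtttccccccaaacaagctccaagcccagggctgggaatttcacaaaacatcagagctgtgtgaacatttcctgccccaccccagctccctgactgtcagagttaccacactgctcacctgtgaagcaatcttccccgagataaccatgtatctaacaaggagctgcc
Ltf: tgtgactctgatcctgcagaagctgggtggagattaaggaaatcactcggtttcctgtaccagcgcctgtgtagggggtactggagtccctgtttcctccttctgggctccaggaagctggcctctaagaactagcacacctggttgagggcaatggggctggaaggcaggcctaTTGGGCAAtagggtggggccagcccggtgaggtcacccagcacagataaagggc
Ngp: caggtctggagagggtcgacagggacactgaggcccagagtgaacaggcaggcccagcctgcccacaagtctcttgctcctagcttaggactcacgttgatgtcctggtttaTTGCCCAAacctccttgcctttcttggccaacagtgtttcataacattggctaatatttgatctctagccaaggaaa
Mmp8: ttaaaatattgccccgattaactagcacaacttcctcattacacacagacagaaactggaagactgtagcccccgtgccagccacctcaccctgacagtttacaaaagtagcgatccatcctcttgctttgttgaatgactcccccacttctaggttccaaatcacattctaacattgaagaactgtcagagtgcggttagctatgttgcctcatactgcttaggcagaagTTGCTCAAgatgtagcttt
Lcn2: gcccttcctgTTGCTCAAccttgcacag
A promoter was found for 9 of the 10 members, all but Mmp9. TTGCNNAA occurred within the 250 bases before the RefSeq start in 5 of these 9 (S100a9, Lcn2, Ltf, Ngp and Mmp8), against 9.56% of 32851 mouse promoters of the same length. S100a8, Camp, Chil3 and Lyz2 held none. Ngp held 2 such matches, one of them after the printed stretch, inside the GENCODE span. The PU.1 core GAGGAA occurred in 4 of 9 members (S100a8, Lcn2, Ltf and Mmp8), against 23.3% of promoters, and the NF-kB pattern GGGANNNNCC in 1 of 9 (Chil3), against 17.6%. Of the 6 C/EBP matches, 0 overlapped a PU.1 or NF-kB match. These matches describe letters in a window and show no binding.

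Total counts ran from 10516722 to 16006001 per library, so that 1 count was worth 0.0574 to 0.0934 CPM (the count scaled by the size of the library). Markers of the sorted population were found in every library: 9 HSPC markers, among them Kit, Cd34 and Flt3, summed to between 1049 and 2333 CPM. Their sum differed between groups, at 1640 to 2333 CPM with PBS and 1049 to 1178 CPM with LPS at 24 h. With LPS plus antibody at 24 h it was 1139 to 1405 CPM. At 72 h it was 1750 to 2255 CPM with LPS and 1189 to 1732 CPM with LPS plus antibody. With LPS at 24 h 5 of the 9 fell by edgeR's test, Cd34 and Flt3 among them, and 0 rose (18.5% of tested genes were lower). LPS library 1 at 24 h had a scaling factor of 0.799, against 0.947 to 1.12 in the others. PBS library 2 stood apart from the other PBS libraries, and the results against PBS are therefore plotted for all members, and given for those that turn on it, with and without it. It was the highest PBS library for all 10 members, so leaving it out raises their differences from PBS by construction. In that library the 10 members together took 0.278% of counts, against 0.0313% to 0.0606% in the other 4 PBS libraries. A set of 12 macrophage markers (Adgre1, C1qa and others) summed to 3282 CPM in it and to 354 to 1248 CPM in the other 4. The 11 neutrophil markers summed to 223 CPM against 171 to 200 CPM, a sum made mostly of Csf3r, which progenitors also express. Among the markers that define mature neutrophils, Ly6g was at 4.80 CPM in PBS library 2 and at 0 in the other 4, and Retnlg was at 51.3 CPM against at most 0.861 CPM. Without Retnlg the neutrophil sum of PBS library 2 would not be the highest of the PBS group. None of the 11 neutrophil or 12 macrophage markers was at 0 in all libraries. The part of these other cell types in the results was not tested, and in bulk libraries fewer cells of a type cannot be told apart from less RNA per cell.

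S100a9 and S100a8 ranged widely within every group, and no group stood clear of another. S100a9 was at 55.5, 675, 93.0, 61.8 and 14.2 CPM in PBS libraries 1 to 5. LPS gave 153, 146 and 12.4 CPM at 24 h and 8.52, 40.7 and 135 CPM at 72 h. LPS plus antibody gave 18.6, 188 and 16.6 CPM at 24 h and 3.62, 38.9 and 53.0 CPM at 72 h. PBS library 2 was the highest of all 17 and stood at 7.26 times the next PBS library. The other 4 PBS libraries averaged 56.1 ± 32.4 CPM (SD, n = 4). S100a8 was at 56.0, 313, 117, 83.2 and 9.26 CPM in the PBS libraries, at 172, 102 and 22.8 CPM with LPS at 24 h, and at 21.2, 156 and 27.7 CPM with LPS plus antibody at 24 h. At 72 h it was at 8.89, 41.8 and 85.1 CPM with LPS and at 3.28, 57.5 and 73.7 CPM with LPS plus antibody. The groups overlapped for both subunits in all 8 pairs compared.

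The subunits rose and fell together. Across the 17 libraries their log2 CPM had a Pearson r of 0.96, and 0.96 again without PBS library 2, as a description of libraries that share groups. The ratio of S100a9 to S100a8 ran from 0.542 in LPS library 3 at 24 h to 2.16 in PBS library 2. Neither subunit passed the test in any of the 9 comparisons. Against PBS, S100a9 differed by -0.79 (log2, SE 1.24) with LPS at 24 h and by -2.49 (SE 1.36) with LPS plus antibody at 72 h, the latter with an adjusted p of 0.217 by edgeR. Without PBS library 2 the first of these was 0.89 (SE 1.07) and the second -0.82 (SE 1.11). S100a8 differed from PBS by -0.23 (SE 1.03) with LPS at 24 h, and by 0.57 (SE 1.01) without that library.

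**Figure D1:**
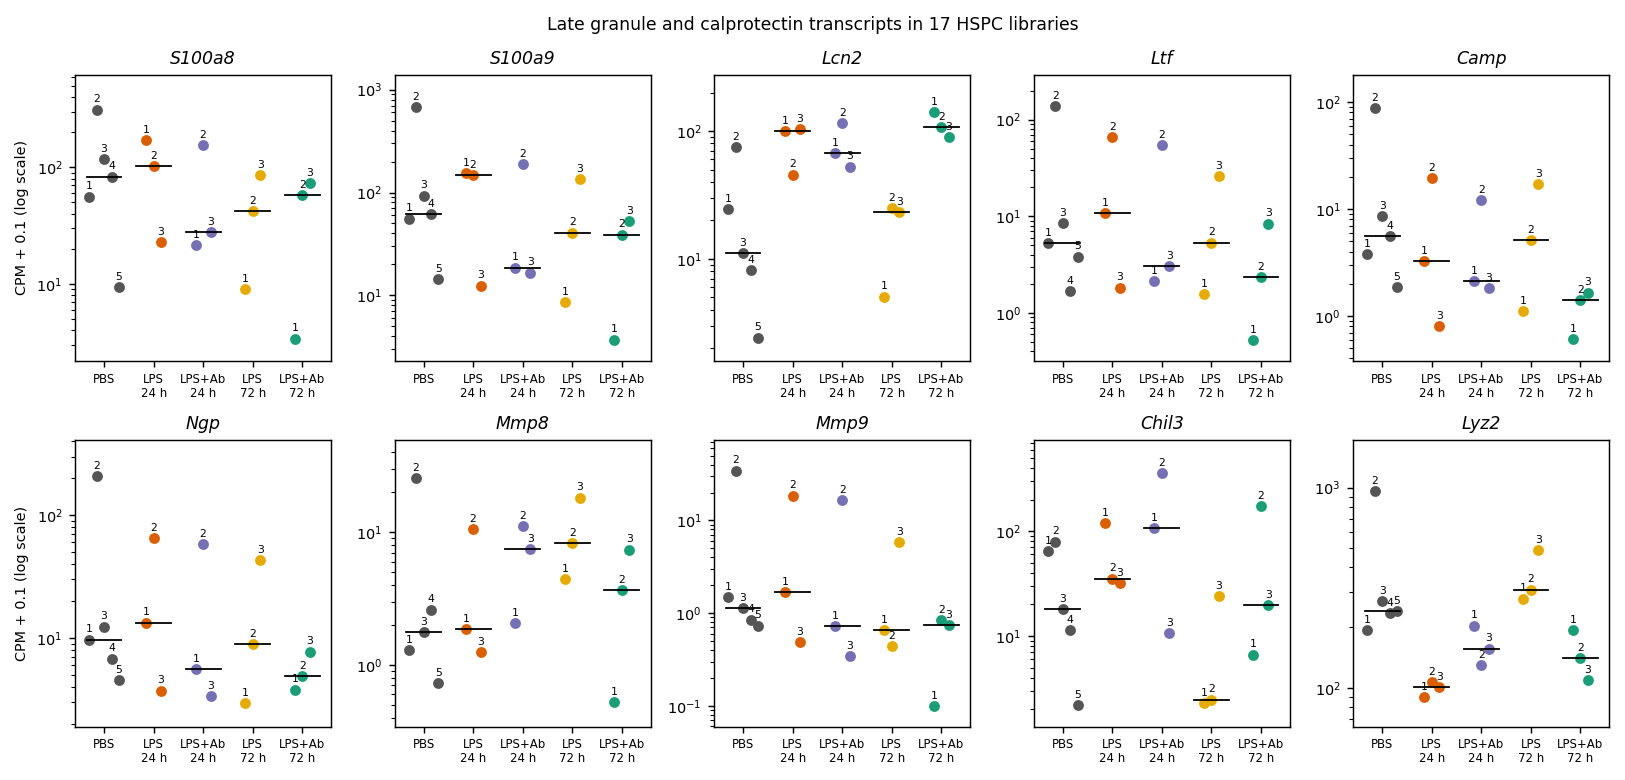
CPM + 0.1 of each of the 10 members (log scale) in 17 libraries, grouped by treatment, with the library number above each point and a line at the group median. PBS library 2 was the highest PBS library for all 10 members, at 675 CPM for S100a9, while Lcn2 and Lyz2 separated some of the treated groups.

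Among the secondary and tertiary granule genes Ltf, Camp, Ngp, Mmp8 and Mmp9 were low in most libraries and high in the same 4. Ngp was at 9.61, 207, 12.3, 6.70 and 4.42 CPM in PBS libraries 1 to 5. With LPS it was at 13.3, 65.2 and 3.64 CPM at 24 h and at 2.84, 8.79 and 42.7 CPM at 72 h. LPS plus antibody gave 5.46, 58.3 and 3.25 CPM at 24 h and 3.70, 4.76 and 7.64 CPM at 72 h. The 4 highest libraries for Ngp were PBS library 2, LPS library 2 at 24 h, LPS plus antibody library 2 at 24 h and LPS library 3 at 72 h. The same 4 libraries were the 4 highest for Ltf, Camp, Mmp8 and Mmp9. They came from 4 of the 5 groups, and no library of LPS plus antibody at 72 h was among them.

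Ltf, the iron-binding lactoferrin, stood at 139, 66.0, 54.5 and 25.7 CPM in these 4 libraries and at no more than 10.8 CPM in the other 13. Mmp9, the gelatinase of tertiary granules, stood at 34.5, 18.5, 16.3 and 5.78 CPM in them and at no more than 1.58 CPM elsewhere. In LPS plus antibody library 1 at 72 h Mmp9 had 0 counts, which allows up to 0.252 CPM (3 counts, counting error only). Mmp8, the neutrophil collagenase, had a smaller gap, from 10.5 CPM in the lowest of the 4 to 8.11 CPM in the next library, LPS library 2 at 72 h. Camp was at 3.71, 88.0, 8.43, 5.45 and 1.75 CPM with PBS and at 0.505, 1.31 and 1.56 CPM with LPS plus antibody at 72 h, where it reached its lowest group mean, 1.12 ± 0.550 CPM (SD, n = 3). Those 3 libraries lay below every PBS library. The difference was -4.23 (log2, SE 1.55, adjusted p = 0.0762 by edgeR), and -2.10 (SE 1.13) without PBS library 2.

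By edgeR with all libraries and no block, none of these 5 genes passed in any comparison. DESeq2 called Camp, at -4.26 (adjusted p = 0.00856), with LPS plus antibody at 72 h against PBS. With LPS at 24 h the direction of all 5 against PBS turned upward when PBS library 2, the highest PBS library for each, was left out. With LPS at 24 h, Ltf differed from PBS by -0.26 (log2, SE 1.47) with all libraries and by 2.47 (SE 1.28, adjusted p = 0.153 by edgeR) without that library. The matching values were -0.81 (SE 1.32) and 1.72 (SE 1.02) for Ngp and -0.15 (SE 1.51) and 2.83 (SE 1.35) for Mmp9. For Mmp8 the greatest value without PBS library 2 was 2.75 (SE 0.88, adjusted p = 0.323 by edgeR) with LPS at 72 h. PBS and LPS libraries of the same number at 24 h had weakly correlated deviations (0.158 to 0.191), and the labels do not state that they are pairs. With the number as a block (3 libraries per group, without PBS libraries 4 and 5) Camp passed the test in LPS at 24 h against PBS at -1.96 (SE 0.50, adjusted p = 0.0242 by edgeR). In that fit 4776 of 14331 tested genes passed.

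**Figure D2:**
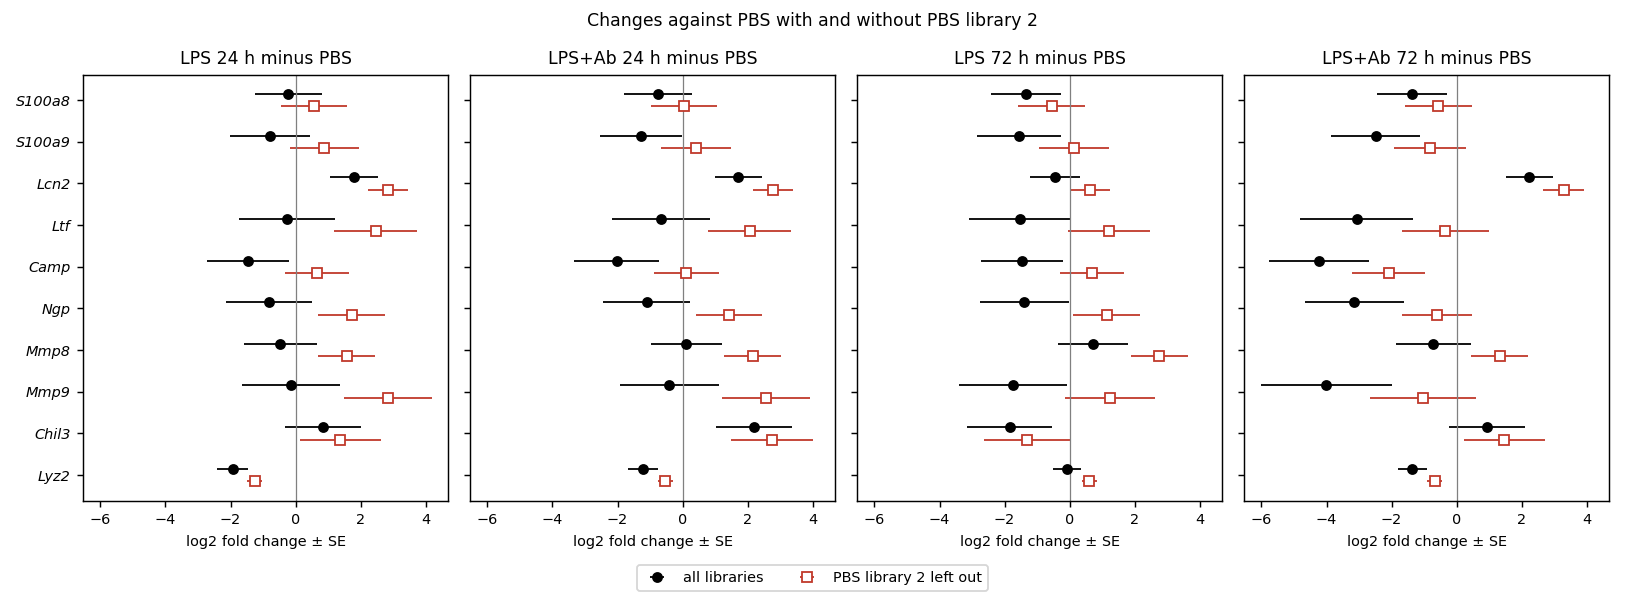
Log2 fold change against PBS ± SE from edgeR for the 10 members in the 4 treated groups, with all libraries (filled circles) and with PBS library 2 left out (open squares). Ltf with LPS at 24 h moved from -0.26 to 2.47, while Lyz2 stayed below 0 and Lcn2 above 0 in that group.

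The spread within groups put most members among the most variable genes. The pooled standard deviation of log2 CPM within groups was 2.33 for Ltf, 2.29 for Mmp9, 2.02 for S100a9 and 1.94 for Ngp, against a median of 0.287 over the 14920 tested genes. Of the 10 members, 9 lay above the 97th percentile of tested genes, from 97.7 for Lcn2 to 99.9 for Ltf. Lyz2 was the exception, with a standard deviation of 0.605 (percentile 84.3). Leaving out PBS library 2 lowered the median over the members from 1.90 to 1.68, and Lyz2 fell to 0.313 (percentile 54.5).

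**Figure D3:**
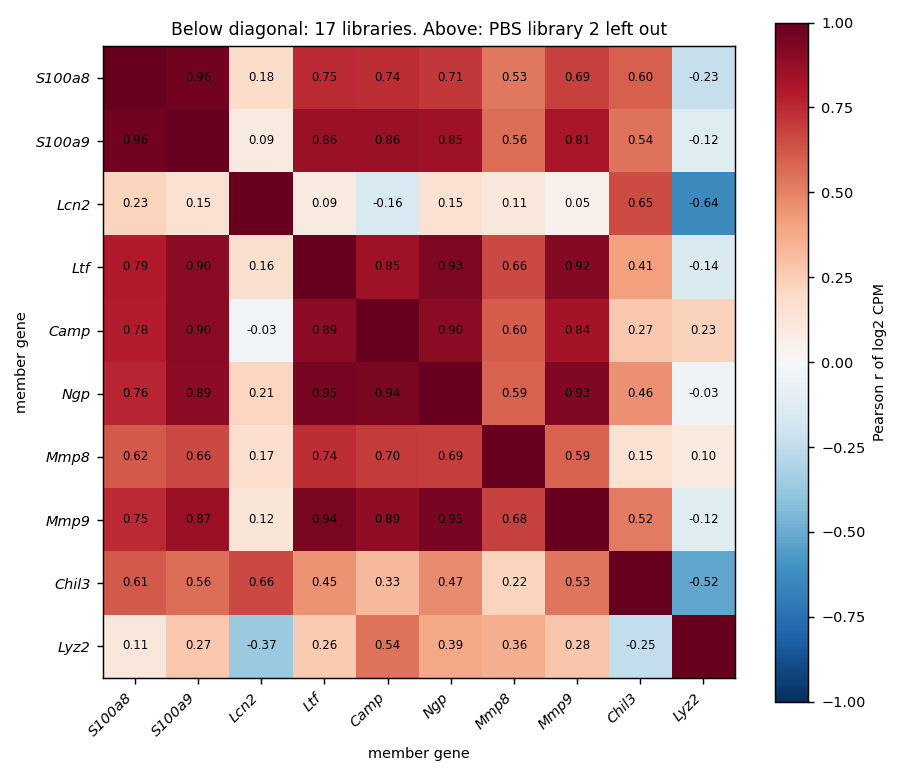
Pearson r of log2 CPM between the members, over 17 libraries below the diagonal and over the 16 without PBS library 2 above it. S100a8, S100a9, Ltf, Camp, Ngp and Mmp9 form a block, from which Lcn2 and Lyz2 stand apart.

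The late granule genes followed each other across libraries more closely than they followed Lcn2 or Lyz2. Over the 17 libraries, which share depth and groups, r of log2 CPM was 0.95 between Ltf and Ngp, 0.94 between Camp and Ngp, 0.95 between Ngp and Mmp9 and 0.89 between S100a9 and Ngp. Lcn2 had an r of 0.15 with S100a9 and of -0.03 with Camp, although it is counted among secondary granule genes. Its highest r with a member was 0.66, with Chil3. Lyz2 had an r of 0.27 with S100a9, and of -0.12 without PBS library 2. The 5 genes outside the members most alike to S100a9 over the 17 libraries were Cd177 (r 0.91), Itgb2l (0.87), Retnlg (0.85), Plcb1 (0.82) and Arhgap24 (0.80). For Ngp they were Retnlg (r 0.96), Itgb2l (0.89), Olfm4 (0.86), Cd177 (0.84) and Ncmap (0.72). Among the genes most alike to Lyz2 were Itgb2 (r 0.93), Itm2b (0.92), Grn (0.92) and Dpep2 (0.90), and none of these 4 was among those of S100a9 or Ngp.

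**Figure D4:**
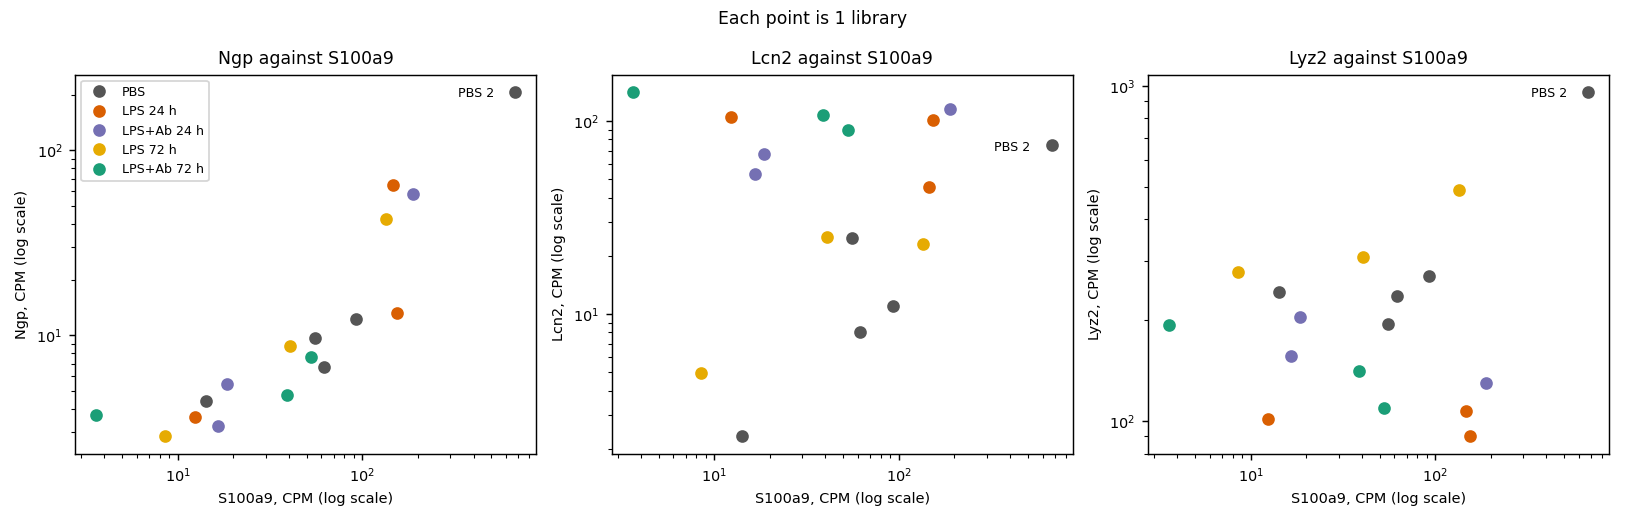
CPM of Ngp, Lcn2 and Lyz2 against CPM of S100a9 (both axes on a log scale), 1 point per library, coloured by group. Ngp rose with S100a9 (r 0.89 of log2 CPM over 17 libraries), whereas Lcn2 (0.15) and Lyz2 (0.27) did not follow it.

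The neutrophil genes Retnlg and Cd177 were high in the libraries that were high for the granule genes, but the sum of the 11 neutrophil markers was not high in all of them. In LPS library 2 at 24 h that sum was 137 CPM, the lowest of its group (163 and 176 CPM in the others). It was the highest of its group in the other 3, at 223, 202 and 227 CPM. In PBS library 2 Retnlg alone made up 51.3 of the 223 CPM, and without Retnlg that sum would not be the highest of its group. Retnlg and Cd177 were picked by their likeness to S100a9 and Ngp, and Ly6g after its values were seen. Retnlg, a resistin-like protein of neutrophils, was at 51.3 CPM in PBS library 2, at 6.25 CPM in both libraries numbered 2 at 24 h (LPS and LPS plus antibody) and at 6.22 CPM in LPS library 3 at 72 h. In the other 13 libraries it was at most 0.861 CPM. Cd177, a neutrophil surface protein, was at 29.8, 14.2, 16.1 and 7.46 CPM in those 4 libraries and at most 4.08 CPM in the rest. Ly6g, the marker by which mouse neutrophils are sorted, was at 4.80, 0.412, 0.234 and 1.10 CPM in them and at most 0.0927 CPM elsewhere. Ly6g did not pass the filter on low counts. Its 0.234 CPM in LPS plus antibody library 2 at 24 h is 3 counts, and 1 count was worth 0.0687 CPM in LPS library 2 at 24 h, so its values there are near the floor. The part of these cells in the level of the members was not tested.

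**Figure D5:**
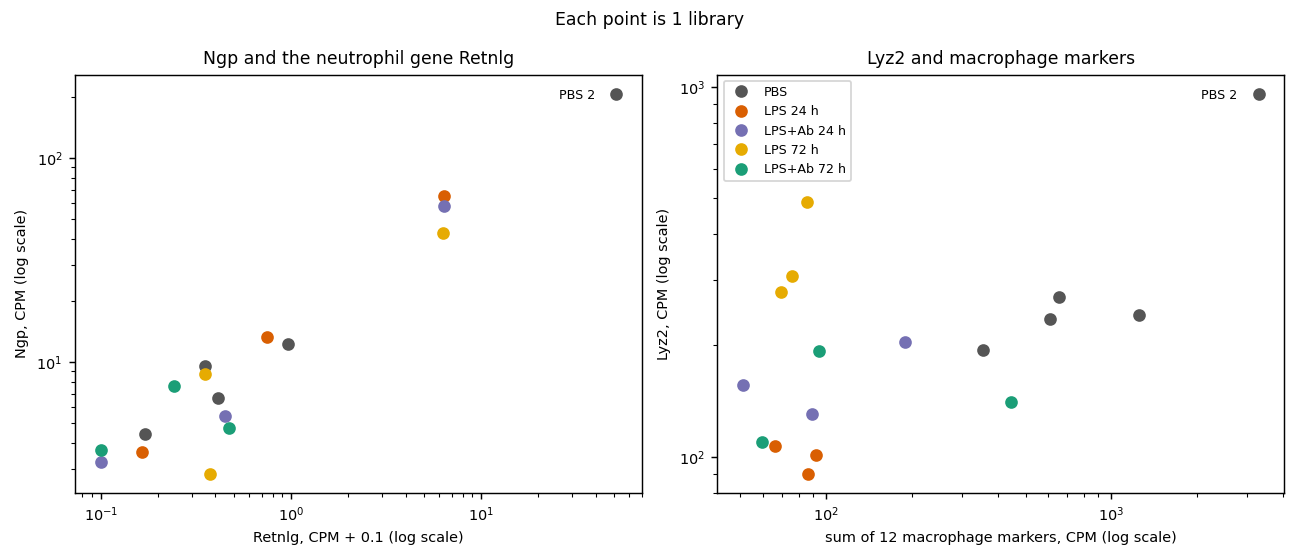
Left, CPM of Ngp against CPM + 0.1 of Retnlg; right, CPM of Lyz2 against the sum of 12 macrophage markers in CPM (log scales), 1 point per library. The 4 libraries with Retnlg of 6.22 CPM or more are the 4 highest for Ngp, and the 3 LPS libraries at 72 h have Lyz2 of 279 to 489 CPM beside macrophage sums of 69.5 to 85.8 CPM.

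Lcn2 was high in several libraries where Ltf, Camp, Ngp and Mmp9 were low. It was also high in LPS plus antibody library 2 at 24 h, which was high for those genes too, and its highest PBS library was library 2. Its libraries were at 24.6, 74.5, 11.01, 8.02 and 2.32 CPM with PBS. LPS gave 100.4, 45.6 and 104 CPM at 24 h and 4.95, 24.9 and 23.0 CPM at 72 h. LPS plus antibody gave 67.4, 115 and 52.7 CPM at 24 h and 141, 107 and 89.7 CPM at 72 h. The antibody libraries at 72 h lay above all 5 PBS libraries and above all 3 LPS libraries at 72 h. The LPS libraries at 72 h lay below those at 24 h. The highest library of all was LPS plus antibody library 1 at 72 h, which was the lowest of all for S100a8, S100a9, Ltf and Camp.

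With all libraries and no block Lcn2 did not pass edgeR's test in any comparison. DESeq2 called it with LPS plus antibody at 72 h against PBS (adjusted p = 0.0355) and against LPS (adjusted p = 0.0222), and between 72 h and 24 h after LPS (adjusted p = 0.0398). Against PBS it differed by 1.80 (log2, SE 0.73, adjusted p = 0.0626) with LPS at 24 h. With LPS plus antibody it differed from PBS by 1.71 (SE 0.73, adjusted p = 0.0957) at 24 h and by 2.23 (SE 0.73, adjusted p = 0.0535) at 72 h, and with LPS at 72 h by -0.44 (SE 0.77, adjusted p = 0.855). At 72 h the antibody libraries exceeded the LPS libraries by 2.67 (SE 0.89, adjusted p = 0.0533). From 24 h to 72 h after LPS the value was -2.24 (SE 0.87, adjusted p = 0.0624). The antibody effect at 72 h minus that at 24 h was 2.76 (SE 1.19, adjusted p = 0.171), a difference that did not pass the test. Without PBS library 2, Lcn2 passed the test against PBS in 3 groups: LPS at 24 h (2.85, SE 0.61, adjusted p = 0.00442), LPS plus antibody at 24 h (2.77, SE 0.61, adjusted p = 0.0144) and LPS plus antibody at 72 h (3.29, SE 0.62, adjusted p = 0.0188). For each group this was the only 1 of 8 omissions of a library that gave a call. The library was set apart for its high values and was the highest of its group for Lcn2. These values are therefore a description and not a test. Slc22a17, a receptor of the Lcn2 protein, fell with LPS at 24 h by 1.95 (log2, adjusted p = 0.000613 by edgeR), in 3 of 3 libraries.

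By edgeR with all libraries and no block, Lyz2 alone of the 10 members passed the test, in 2 comparisons. It was at 194, 960.4, 271, 235 and 242 CPM in PBS libraries 1 to 5. LPS gave 90.0, 107 and 101 CPM at 24 h and 279, 309 and 489 CPM at 72 h. LPS plus antibody gave 204, 130.3 and 157 CPM at 24 h and 193, 141 and 109 CPM at 72 h. The 3 LPS libraries at 24 h were the 3 lowest of all 17. At 72 h the LPS libraries lay above all PBS libraries but library 2, and the antibody libraries lay below all of both groups.

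Lyz2 fell with LPS at 24 h against PBS by 1.94 (log2, SE 0.466, adjusted p = 0.00511 by edgeR), with 3 of 3 libraries below all PBS libraries. Without PBS library 2 it fell by 1.25 (SE 0.23, adjusted p = 0.00233). From 24 h to 72 h after LPS it rose by 1.85 (log2, SE 0.495, adjusted p = 0.0107 by edgeR), and at 72 h it differed from PBS by -0.08 (SE 0.43, adjusted p = 0.952). With LPS plus antibody it differed from PBS by -1.22 (SE 0.45, adjusted p = 0.0595) at 24 h and by -1.36 (SE 0.45, adjusted p = 0.0551) at 72 h, neither below 0.05. Without PBS library 2 these values were -0.53 (adjusted p = 0.115) and -0.68 (adjusted p = 0.0800), and that of LPS at 72 h was 0.61 (adjusted p = 0.373, edgeR). Beside LPS alone, the antibody libraries differed by 0.72 (SE 0.48, adjusted p = 1) at 24 h and by -1.28 (SE 0.49, adjusted p = 0.0841) at 72 h, without overlap at either time. The difference between these antibody effects was -2.0 (log2, SE 0.69, adjusted p = 0.0888 by edgeR) and did not pass the test.

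Markers of monocytes and macrophages moved beside Lyz2 in part. The macrophage sum was 354 to 3282 CPM with PBS and 66.2 to 92.0 CPM with LPS at 24 h, where Lyz2 fell and 12 of the 12 markers fell by edgeR's test. Without PBS library 2 the highest PBS sum was 1248 CPM. The sum was 69.5 to 85.8 CPM with LPS at 72 h, where Lyz2 lay within its PBS range, and 51.1 to 189 CPM and 59.3 to 443 CPM with LPS plus antibody at 24 h and 72 h. With LPS at 72 h all 12 markers were below PBS, at a median of -5.46 (log2), against -4.62 with LPS at 24 h. None of the 12 passed at 72 h, where 0.0201% of tested genes did, and 11 had an unadjusted p below 0.05 (edgeR). The monocyte sum of 10 markers was 456 to 1676 CPM with PBS, 612 to 1023 CPM with LPS at 24 h and 1385 to 3066 CPM with LPS at 72 h. Among the genes most like Lyz2, Itgb2, the shared chain of leukocyte integrins, fell with LPS at 24 h by 0.91 (log2, adjusted p = 0.0115 by edgeR). The part of these cells was not tested.

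Chil3 ranged widely in the antibody groups, from 10.6 to 361 CPM at 24 h. With PBS its lowest, median and highest libraries were at 2.11, 18.0 and 79.4 CPM. LPS gave 120.2, 35.2 and 31.8 CPM at 24 h and 2.2, 2.37 and 24.1 CPM at 72 h, and these groups did not overlap. LPS plus antibody gave 108, 361 and 10.6 CPM at 24 h and 6.56, 173 and 19.7 CPM at 72 h. From 24 h to 72 h after LPS the difference was -2.68 (log2, SE 1.44, adjusted p = 0.169 by edgeR). The antibody group at 72 h differed from LPS by 2.77 (SE 1.44, adjusted p = 0.197 by edgeR), with overlap.

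Per length of transcript the members spanned a wide range of levels. Median levels with PBS, in CPM per kb of annotated exon, were 184 for Lyz2, 120 for S100a8 and 118 for S100a9. They were 11.04 for Chil3, 7.86 for Ngp, 7.19 for Camp, 4.2 for Lcn2, 1.49 for Ltf, 0.686 for Mmp8 and 0.292 for Mmp9. The PBS ranges of neighbours in this order overlapped, for example 148 to 730 for Lyz2 and 13.3 to 451 for S100a8. With LPS at 24 h the medians put S100a9 first (280), before S100a8 (147), Lyz2 (76.8) and Lcn2 (38.3). With LPS plus antibody at 72 h Lyz2 stood first again (107), and Lcn2 (40.7) exceeded every member but Lyz2, S100a8 (82.8) and S100a9 (74.5).

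Counted over the members by edgeR, 1 of 10 (Lyz2, lower) passed the test with LPS at 24 h against PBS, where 37.6% of tested genes did and 18.5% were lower. The count was 0 of 10 with LPS plus antibody at 24 h (24.2% of tested genes), 0 of 10 with LPS at 72 h (0.0201%) and 0 of 10 with LPS plus antibody at 72 h (13.2%). At 24 h the antibody and LPS groups differed in 0 members, and in 0 genes at all (0%). For that comparison 273 genes (1.83%) had an unadjusted p below 0.05, and DESeq2 called 1. At 72 h they differed in 0 members (15.1% of tested genes). After LPS, 1 of 10 (Lyz2, higher) differed between 72 h and 24 h (31.1% of tested genes, 14.7% higher). With antibody 0 did (0%, with 635 genes, 4.26%, at an unadjusted p below 0.05 and 2 called by DESeq2), and the antibody effect changed between times in 0 members (6.35%). DESeq2 called 1 member with LPS at 24 h, 1 with LPS plus antibody at 24 h and 3 with LPS plus antibody at 72 h against PBS. Of all 14920 tested genes it called 6075, 4230 and 2917 there, more than edgeR did. It called 2 members between antibody and LPS at 72 h (3029 of all genes) and 2 between 72 h and 24 h after LPS (5142). For the change of the antibody effect it called 1 member (1673 of all genes).

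The median log2 difference of the members from PBS was -0.36 with LPS at 24 h and -0.71 with LPS plus antibody at 24 h, and at 72 h it was -1.43 and -1.93. Over all tested genes these medians were -0.03, -0.00103, -0.03 and -0.00246. The 4 comparisons share the PBS libraries. With PBS library 2 left out, the medians of the members were 1.48 and 1.75 at 24 h and 0.65 and -0.59 at 72 h, in the same order, and those of all tested genes -0.02, 0.00197, -0.03 and -0.000599. The median thus turned above 0 in 3 of the 4 groups. PBS library 2 was the highest PBS library for all 10 members, so a rise on leaving it out was fixed in advance. The groups did not overlap for 1 member (Lyz2) with LPS at 24 h, against 42.8% of tested genes. It held for 0 members in LPS plus antibody at 24 h (31%) and in LPS at 72 h (12%). For LPS plus antibody at 72 h that held for 3 members (Lcn2, Camp and Lyz2), against 26.9%. Between antibody and LPS it held for 1 member (Lyz2) at 24 h, against 3.15%, and for 2 (Lcn2 and Lyz2) at 72 h, against 33.2%. Between 72 h and 24 h it held for 3 members after LPS (Lcn2, Chil3 and Lyz2), against 45.4%, and for 1 with antibody (Camp), against 9.26%.

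The share of all tested genes called by edgeR, the background to the counts of each gene list, was 37.6% for LPS at 24 h, 24.2% for LPS plus antibody at 24 h, 0.0201% for LPS at 72 h and 13.2% for LPS plus antibody at 72 h, against PBS, and 15.1% between antibody and LPS at 72 h. Among genes of the primary granules, made earlier in the same lineage, Mpo, their myeloperoxidase, was at 1938 to 10107 CPM with PBS and at 5645 to 9987 CPM with LPS at 24 h. The list of 10 genes for this stage also holds genes that do not encode granule proteins, such as Ms4a3. Of the 10, 1 rose with LPS at 24 h (Ms4a3, by 1.74 log2, adjusted p = 0.0396 by edgeR). The granule protein genes Mpo, Elane, Prtn3 and Ctsg did not pass there. With LPS plus antibody at 24 h 1 rose (Ctsc, by 0.89, adjusted p = 0.0356 by edgeR), and at 72 h 0 did. Ms4a3 no longer passed without PBS library 2 (1.55, adjusted p = 0.0837). With LPS at 72 h Mpo and Prtn3 differed from PBS by 0.46 (SE 0.49) and 0.38 (SE 0.58). The median of the 10 was 0.47 and 0.49 with LPS and LPS plus antibody at 24 h, and 0.35 and 0.25 at 72 h.

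Of 25 other secondary, tertiary and secretory granule or late neutrophil genes in the table, 19 were tested. With LPS at 24 h 3 of the 19 fell and 0 rose: Itgam, the integrin chain of the complement receptor (-1.26, adjusted p = 0.00268), Itgb2 (-0.91, adjusted p = 0.0115) and the ficolin Fcnb (-3.0, adjusted p = 0.0394, all by edgeR). Fcnb was at -3.08 with an adjusted p of 0.0515 without PBS library 2. None of the 19 passed with LPS plus antibody at 24 h or with LPS at 72 h. With LPS plus antibody at 72 h, Cybb, the catalytic chain of the phagocyte oxidase, rose (1.55, adjusted p = 0.0320), and against LPS at 72 h Itgam fell (-1.33, adjusted p = 0.00851, both by edgeR).

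Of 14 neutrophil surface and mature neutrophil markers tested, 3 rose and 1 fell with LPS at 24 h, 4 rose with LPS plus antibody at 24 h and 5 rose with LPS plus antibody at 72 h. Trem1, an amplifier of inflammatory signals, rose by 1.79 (adjusted p = 0.00146), 1.67 (adjusted p = 0.00616) and 1.83 (adjusted p = 0.00833) in the LPS group at 24 h and the antibody groups at 24 h and 72 h. The C-type lectins Clec4d and Clec4e rose in the same groups, Clec4e by 0.79, 1.01 and 1.26 (edgeR). Fpr1, a receptor for bacterial peptides, fell with LPS at 24 h by 3.24 (adjusted p = 0.0346), and without PBS library 2 it was at -2.48 (adjusted p = 0.0888, edgeR). Il1r2, a decoy receptor, rose with antibody by 2.03 at 24 h (adjusted p = 0.0154) and by 1.68 at 72 h (adjusted p = 0.0493, edgeR). At 72 h that call was lost without PBS library 2 (1.78, adjusted p = 0.0756). At 72 h the antibody libraries exceeded LPS for Trem1 (1.26, adjusted p = 0.0444) and Clec4e (0.75, adjusted p = 0.0218, edgeR).

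Among 10 transcription factors of granulocyte formation, Cebpb, which drives emergency granulopoiesis, rose with LPS at 24 h by 1.5 (log2, adjusted p = 0.00299 by edgeR). It also rose with LPS plus antibody, by 1.65 (adjusted p = 0.00543) at 24 h and by 1.18 (adjusted p = 0.0320) at 72 h. Cebpa, a driver of the granulocyte fate, rose with LPS at 24 h by 0.89 (adjusted p = 0.0109), and Irf8, a driver of the monocyte fate, fell by 0.99 (adjusted p = 0.0278, edgeR). Irf8 was at -0.87 with an adjusted p of 0.0621 without PBS library 2. At 72 h Irf8 was lower with antibody than with LPS alone in 3 of 3 libraries (-1.47, adjusted p = 0.0147, edgeR). The family members Cebpd and Cebpe did not pass with LPS at 24 h, at 0.47 (adjusted p = 0.214) and 0.56 (adjusted p = 0.456, edgeR). In total 3 of 10 factors passed with LPS at 24 h, where 37.6% of tested genes did. It was 1 with each antibody group against PBS (24.2% of tested genes at 24 h and 13.2% at 72 h) and 0 with LPS at 72 h (0.0201%).

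Of 6 genes for calprotectin receptors and their partners, 2 rose with LPS at 24 h and the same 2 with LPS plus antibody at 24 h. Myd88, the adaptor below Tlr4, rose by 0.86 (adjusted p = 0.00126), 0.87 (adjusted p = 0.00448) and, with antibody at 72 h, 0.81 (adjusted p = 0.00897, edgeR). Bsg, a reported receptor of S100A9, rose by 0.72 (adjusted p = 0.00505) with LPS and by 0.58 (adjusted p = 0.0262) with antibody at 24 h, the latter at 0.57 with an adjusted p of 0.0536 without PBS library 2 (edgeR). At 72 h Myd88 was higher with antibody than with LPS alone (0.85, adjusted p = 0.00809, edgeR). Of 5 genes for inhibitors and binding partners of the members 4 were tested, and 3 fell with LPS at 24 h: Lrp1, a receptor that takes up Ltf (-2.58, adjusted p = 0.00313), Timp2, an inhibitor of matrix proteases (-2.11, adjusted p = 0.00290), and Slc22a17. The same 3 fell with LPS plus antibody at 24 h, where Lrp1 was at -1.84 (adjusted p = 0.0259), and at -1.37 (adjusted p = 0.0589) without PBS library 2 (edgeR). Timp2 and Slc22a17 also fell with LPS plus antibody at 72 h, by 1.79 and 1.67.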

How the data were processed

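Per the labels' protocols, HSPC were sorted into lysis buffer and polyadenylated RNA was sequenced. The authors deposited 1 table of raw counts, whole numbers for 35321 gene symbols in 17 columns, and 0 columns could not be matched to a sample. Per the submitters' processing notes the tools were HISAT2 2.2.0, featureCounts 2.1.1 of Subread, R 4.3.2 and DESeq2, with build GRCm38. The annotation, the use of strand and the treatment of reads with several matches are not given in the sources used here.

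Counts were tested in edgeR 4.0.16 (R 4.3.3) with the quasi-likelihood F test, 1 mean per group over 17 libraries, trimmed mean of M-values (TMM) scaling and filterByExpr (minimum count 10, minimum total 15), which kept 99.9% of counts. P-values were adjusted by Benjamini-Hochberg over 14920 genes within each of 9 comparisons, and genes below 0.05 were called. Standard errors are approximate, the change divided by the square root of F. CPM are TMM-scaled. Correlations use log2 CPM with a prior count of 2. The code was checked on simulated data.

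The members, the lists and the comparisons were chosen with earlier results of these data known. The text names all members, up to 4 called genes of greatest change per list and comparison (where none was called, some of the most abundant), and the 5 genes most alike to S100a9, Ngp and Lyz2. Some results that this rule names are not reported here. Ly6g and Csf3r were singled out after their values were seen. Alternatives were DESeq2 scaling, upper-quartile scaling, DESeq2 1.42.0's Wald test, no filter, a fit of the compared groups alone, a replicate block and the omission of each library. The replicate numbers come from the titles. Deviations of PBS and LPS 24 h libraries of the same number had correlations of 0.158 to 0.191, above 0.1 for all 3 pairs, and in no other comparison were all pairs above 0.1. For LPS plus antibody at 72 h against 24 h they were 0.723, -0.0217 and 0.697 for numbers 1 to 3. Libraries of different numbers were not compared in this way, and the labels do not state that equal numbers mark pairs. No 2 libraries were identical, the highest correlation of log2 CPM being 0.990.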

Additional observations from a re-analysis of the deposited data

Results flagged for a closer look

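Within the PBS group 1 library, number 2, lay far above the other 4 for 7 of the 10 members. Its gap to the next library, as a share of the group's whole range, was 0.978 for Mmp9, 0.961 for Ngp, 0.950 for Ltf, 0.924 for Mmp8, 0.923 for Camp, 0.900 for Lyz2 and 0.881 for S100a9. Dixon's critical value for 5 samples is 0.71, which chance passes in about 1 in 20 groups chosen without regard to their values. That rate does not apply here, because this library was already known to stand out for S100a9 when the members were chosen, and other members vary with S100a9. The values are therefore a description and not a test. In CPM, Mmp9 was 24.9 times, Ngp 16.9 times, Ltf 16.6 times, Camp 10.4 times, Mmp8 10.1 times and Lyz2 3.54 times the next PBS library. S100a8 (2.67 times), Lcn2 (3.03 times) and Chil3 (1.24 times) were also highest in PBS library 2, with a gap under the critical value.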

How the results depend on the processing

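Lyz2 kept its direction and its call with LPS at 24 h against PBS in 8 of 8 fits with 1 library left out (-2.10 to -1.25, adjusted p 0.00233 to 0.0326) and between 72 h and 24 h after LPS in 6 of 6 (1.54 to 2.00, adjusted p 0.0186 to 0.0452, edgeR). The number of members called changed with other settings, and the cause was not tested. With LPS plus antibody at 24 h against PBS it was 0, and 1 with upper-quartile factors or DESeq2's Wald test (Lyz2 both times). With LPS plus antibody at 72 h against PBS it was 0, and 1 with upper-quartile factors (Lyz2) and 3 with DESeq2 (Lcn2, Camp and Lyz2). Between antibody and LPS at 72 h it was 0, and 2 with DESeq2 or with the compared groups alone (Lcn2 and Lyz2). Between 72 h and 24 h after LPS it was 1, and 2 with DESeq2 or the compared groups alone (Lcn2 added) and 3 with the replicate block (Lcn2 and Chil3 added). For the change of the antibody effect it was 0, and 1 with DESeq2 or the compared groups alone (Lyz2). Over all 14920 genes, upper-quartile factors called 3448 and 2007 for the antibody groups against PBS at 24 h and 72 h. DESeq2 called 4230 and 2917 for these and 3029 between antibody and LPS at 72 h. It called 5142 between times after LPS and 1673 for the change. The compared groups alone gave 1123 of 13855 genes between antibody and LPS and 3793 of 13859 between times. They gave 286 of 14350 for the change, and the block gave 3404 of 13859 between times after LPS.

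The replicate block gave 2 members called with LPS at 24 h against PBS in place of 1, where it called 4776 of 14331 tested genes. The next counts are for comparisons where same-numbered libraries were not all correlated above 0.1. The block left 0 called genes in place of 3605 and of 1975 for the antibody groups against PBS at 24 h and 72 h. It gave 84 in place of 3 for LPS at 72 h against PBS, 344 in place of 2256 between antibody and LPS at 72 h, and 44 in place of 947 for the change of the antibody effect. For Chil3 with LPS plus antibody at 72 h against PBS the block gave -0.49 in place of 0.92, for Camp between 72 h and 24 h after LPS -0.045 in place of 0.0077, and for S100a9 in the change of the antibody effect 0.39 in place of -0.46. Counts over all genes also moved with DESeq2 (178 for LPS at 72 h against PBS, 1673 for the change of the antibody effect), with the compared groups alone (99, 286, and 1123 between antibody and LPS at 72 h) and without the filter (617 for the change of the antibody effect). Values close to 0 turned: Mmp8 with LPS plus antibody at 24 h against PBS was -0.010 with upper-quartile factors, S100a8 between antibody and LPS at 72 h was 0.0011 without the filter and 0.017 with the compared groups alone, and Camp between 72 h and 24 h after LPS was -0.0059 without the filter.

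With 1 library left out, members called ranged from 1 to 2 for LPS at 24 h against PBS and from 0 to 1 for both antibody groups against PBS (Lcn2 without PBS library 2, Lyz2 without PBS library 1 or 4). Called genes ranged from 3361 (without LPS library 1) to 5443 for LPS at 24 h, from 877 (without library 2 of that group) to 3420 for LPS plus antibody at 24 h and from 583 (without library 3 of that group) to 2066 for LPS plus antibody at 72 h, against PBS. They ranged from 0 (without PBS library 1, 3, 4 or 5 or LPS library 2) to 3 for LPS at 72 h against PBS, with 1 without LPS library 3, from 769 (without LPS library 1 at 72 h) to 2279 between antibody and LPS at 72 h, and from 231 (without LPS library 1 at 72 h) to 1544 for the change of the antibody effect. Other omissions that moved a count by over 1.5 times were PBS libraries 2 and 5 for LPS plus antibody at 24 h, and PBS libraries 2, 3 and 5 and library 1 of the group for LPS plus antibody at 72 h. They were LPS library 2 and antibody library 1 between antibody and LPS at 72 h. For the change of the antibody effect they were, at 24 h, LPS library 3 and all 3 antibody libraries and, at 72 h, LPS library 2 and antibody library 3. Of 90 member values 53 turned sign in at least 1 such fit, and none of those 53 was called. LPS at 24 h against PBS spanned -0.89 to 0.57 for S100a8, -1.17 to 0.89 for S100a9, -2.35 to 2.47 for Ltf, -3.51 to 0.67 for Camp, -2.52 to 1.72 for Ngp, -2.10 to 1.57 for Mmp8, -3.0 to 2.83 for Mmp9 and -0.044 to 1.38 for Chil3. LPS plus antibody at 24 h against PBS spanned -2.24 to 0.037 for S100a8, -3.35 to 0.40 for S100a9, -3.66 to 2.07 for Ltf, -3.50 to 0.11 for Camp, -3.45 to 1.43 for Ngp, -0.42 to 2.15 for Mmp8 and -4.06 to 2.57 for Mmp9. LPS at 72 h against PBS spanned -2.87 to 0.13 for S100a9, -0.77 to 0.62 for Lcn2, -3.22 to 1.20 for Ltf, -2.83 to 0.67 for Camp, -3.04 to 1.14 for Ngp, -0.0098 to 2.75 for Mmp8, -4.08 to 1.24 for Mmp9 and -0.38 to 0.61 for Lyz2. LPS plus antibody at 72 h against PBS spanned -1.66 to 1.32 for Mmp8 and -1.38 to 1.49 for Chil3. Antibody against LPS spanned at 24 h -2.01 to 0.15 for S100a8, -0.47 to 0.14 for Lcn2, -3.40 to 1.69 for Ltf, -2.04 to 1.49 for Camp, -2.65 to 1.42 for Ngp, -3.92 to 2.59 for Mmp9 and -0.075 to 2.27 for Chil3, and at 72 h -0.58 to 0.85 for S100a8, -1.54 to 0.40 for S100a9, -3.05 to 0.17 for Ltf and -2.77 to 0.10 for Mmp9. From 24 h to 72 h the spans after LPS were -2.97 to 0.83 for Ltf, -1.37 to 2.05 for Camp, -2.25 to 1.13 for Ngp and -3.95 to 1.26 for Mmp9. With antibody they were -1.17 to 0.88 for S100a8, -1.82 to 0.86 for S100a9, -3.91 to 0.59 for Ltf, -2.57 to 0.30 for Ngp, -4.18 to 0.053 for Mmp9, -3.60 to 0.16 for Chil3 and -0.39 to 0.041 for Lyz2. The change of the antibody effect spanned -0.19 to 2.00 for S100a8, -1.06 to 1.62 for S100a9, -3.24 to 1.86 for Ltf, -3.17 to 0.89 for Ngp, -4.86 to 1.65 for Mmp9 and -0.89 to 3.51 for Chil3. Mmp9, Camp and Mmp8 had under 10 counts in some libraries, where counting error limits their precision.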
